A study of Mus musculus with 15 samples.

Results

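The sites of a mutant form of the transcription factor Sp7, labelled Sp7mut, were compared with those of Sp1 in MC3T3-E1 cells. Members were chosen by position alone: a region of a factor is a set of merged peaks that holds a peak of each of its 2 replicate libraries and overlaps no peak of the GFP control. This gave 8203 Sp7mut regions and 8942 Sp1 regions. Together they made 13850 distinct sites, of 31641 sites found in the same way for any factor or cell system of the series, and 3262 of them were common to both factors.

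MC3T3-E1 is an established mouse pre-osteoblast line derived from calvaria, the flat bones of the skull. All groups described here were this line at passages 5 to 10, cultured for 1 week in osteogenic medium with recombinant human BMP-2 (10 ng/ml), beta-glycerophosphate (10 mM) and ascorbic acid phosphate (50 ug/ml), and all were pulled down with the FLAG M2 antibody. The groups used were Sp7mut-FLAG and Sp1-FLAG (2 libraries each), the control GFP-FLAG (1 library), and, for comparison, Sp7-FLAG and Dlx5-FLAG of the same line (2 libraries each). A further comparison list came from Sp7 carrying the BioFL allele on both gene copies in calvarial osteoblasts of C57BL/6 mice at postnatal day 1 (2 libraries, filtered with 1 wild-type FLAG library). Sp7mut and Sp1 were called against 1 and the same input library, per the labels, while cell line Sp7 and Dlx5 were called against another. The labels do not state which residues differ in Sp7mut, how the tagged proteins were expressed or at what level. The cell line's own Sp7, Sp1 and Dlx5 genes are not described in the labels as altered.

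Sp7, also called Osterix, and Sp1 belong to the same family of transcription factors, which bind DNA through a set of zinc fingers near the end of the protein. Sp1 is made in most cell types and is known for binding GC-rich boxes, many of them in promoters. Sp7 is made chiefly in the osteoblast lineage and is required for bone formation. The series' title describes Sp7 as a co-factor of Dlx proteins, homeodomain factors that bind AT-rich sequence. A comparison of a mutant Sp7 with Sp1 asks how far the sites of the mutant coincide with those of its widely expressed relative. No genome of the build of these lists (mm9) was used here, so no sequence, motif or gene is given for any region.

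The 4 lists differed in length. Sp7mut had 10519 peaks in replicate 1 and 14830 in replicate 2, with median widths of 147 and 166 bp. Sp1 had 10549 and 28210 peaks, with median widths of 157 and 152 bp, so its replicate 2 was by far the longest list. The GFP control had 269 peaks, which lay under 133 and 164 Sp7mut peaks and 178 and 218 Sp1 peaks. The control removed 126 of 8329 Sp7mut regions and 166 of 9108 Sp1 regions. Among the removed regions, 106 of the 126 Sp7mut regions (84.1%) overlapped a removed Sp1 region and 106 of the 166 Sp1 regions (63.9%) a removed Sp7mut region, where both sets lie over the same control peaks by their choice. The lists hold positions only, with no score or read count, so the depth behind a peak is unknown. Each share below is given with a 95% Clopper-Pearson interval where one is printed, which covers counting error only. Since each factor had 2 lists, the smallest two-sided p an exact permutation of lists allows is 0.333, so no test was made. Replicate spread is given as the lowest and highest value among the 4 combinations of 1 Sp7mut list with 1 Sp1 list. For shares, row positions and spacing, a region in these combinations needs a peak of only 1 library. They are then other sets of regions, and their range need not enclose the main value.

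Sp7mut and Sp1 had a large minority of their sites in common. Of the 8203 Sp7mut regions, 3286 (40.1%, interval 39.0 to 41.1) overlapped an Sp1 region, and 3271 of the 8942 Sp1 regions (36.6%, interval 35.6 to 37.6) overlapped an Sp7mut region. The remaining 4917 Sp7mut and 5671 Sp1 regions are called separate. The overlap was nearly one to one, since only 9 Sp7mut regions met more than 1 Sp1 region and 24 Sp1 regions met more than 1 Sp7mut region. Without Sp1 replicate 1, so that a peak of the longer replicate 2 was enough, 76.4% of Sp7mut regions and 23.0% of Sp1 regions were common.

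Between single lists of equal length, overlap between the factors was far below overlap between replicates. All 4 lists were kept to their first 10519 rows and control peaks were removed. Sp7mut replicate 1 then met Sp1 replicates 1 and 2 at 38.3% and 41.8% of its peaks, and Sp7mut replicate 2 met them at 36.1% and 40.6%. The replicates of Sp7mut met each other at 70.1% and 69.9% of their peaks, and those of Sp1 at 78.9% and 77.6%. No pair of lists from different factors reached a pair from the same factor. Among the first 1000 rows the ranges were further apart, at 14.1% to 22.2% of Sp7mut peaks met by Sp1, against 74.4% to 76.8% between the Sp7mut replicates and 75.7% to 76.3% between those of Sp1.

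With whole lists the share of Sp7mut peaks met by Sp1 followed the length of the Sp1 list. Sp1 replicate 1 met 38.4% and 33.0% of the peaks of Sp7mut replicates 1 and 2. The longer Sp1 replicate 2 met 69.7% and 67.9%. The difference between the Sp1 lists was thus larger than that between the Sp7mut lists.

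Many Sp7mut regions classed as separate held a peak of 1 Sp1 library. Of the 4917 separate Sp7mut regions, 2963 (60.3%) overlapped a peak of Sp1 replicate 2 alone, 158 (3.21%) a peak of replicate 1 alone and 74 peaks of both that formed no kept Sp1 region. The remaining 1722, or 21.0% of all Sp7mut regions, overlapped no peak of either Sp1 list. The Sp1 replicate 2 peaks at the 2963 regions stood at a median of 51.9% of the rows of that list, near its middle. Those at common regions stood at 11.7%, but common regions also need a peak of Sp1 replicate 1. All Sp1 regions, which share that need, had a median of 16.9% in replicate 2, so the contrast is partly set by the classes. More Sp1 regions lacked a peak of the other factor, but they were set against shorter lists. Of the 5671 separate Sp1 regions, 3943 (69.5%) met no peak of either Sp7mut list, 1170 met replicate 2 alone and 461 met replicate 1 alone. Of all Sp1 regions, 44.1% had no Sp7mut peak. This share and the 21.0% for Sp7mut cannot be compared, since the Sp1 lists reach 28210 rows and the Sp7mut lists 14830. With every list kept to the rows of the shortest, 38.4% of Sp7mut and 34.3% of Sp1 regions were common.

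Row position is the row of a peak as a percentage of the rows of its list, so that a low value is near the start. The rule that ordered the rows is not stated. Replicates nevertheless held their regions in much the same order, with a Spearman correlation of 0.759 between the row positions of the 8203 Sp7mut regions in replicates 1 and 2, and of 0.878 for the 8942 Sp1 regions. Across the 3295 pairs of overlapping Sp7mut and Sp1 regions, the correlation of rows between a list of 1 factor and a list of the other was only 0.219 to 0.334 over the 4 pairs of lists. These are descriptions across regions of the same libraries, which are not replicates.

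Common regions stood early in the Sp1 lists and were spread more evenly over the Sp7mut lists. Common Sp1 regions had a median row position of 37.5% in replicate 1 and 11.8% in replicate 2, and separate Sp1 regions 50.4% and 19.8%. Common Sp7mut regions had medians of 38.5% and 30.4%, and separate ones 45.0% and 31.8%. In both factors and in all 4 lists the common regions stood earlier, by the smallest amount in Sp7mut replicate 2. Averaged over replicates, separate regions stood 4.24 percentage points later in Sp7mut and 10.6 later in Sp1. For Sp7mut the difference was 11.5 without its replicate 1 and 10.7 without its replicate 2, and for Sp1 it was 27.3 without its replicate 1. The 4 pairs of single lists gave 10.4 to 15.9 in Sp7mut, all above the 4.24, and 10.3 to 27.6 in Sp1. In all of these the regions of at least 1 factor needed only 1 library, so they are other sets of regions.

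Taken in 5 successive parts of 20% of the regions in row order, 53.8% of the first part of Sp1 regions were common (interval 51.5 to 56.1). The share fell from part to part, through 38.5%, 34.5% and 31.9%, to 24.1% in the last part (interval 22.2 to 26.2). For Sp7mut the parts gave 40.5%, 45.5%, 40.7%, 37.7% and 35.9%, with the highest value in the second part. The share of Sp7mut regions with no Sp1 peak in either list lay between 18.8% and 25.1% in all 5 parts, while the share of Sp1 regions with no Sp7mut peak rose from 27.1% in the first part to 53.9% in the last.

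The leading regions of Sp1 were mostly Sp7mut regions, and the leading regions of Sp7mut were mostly not Sp1 regions. Of the first 100 Sp1 regions, 82 overlapped an Sp7mut region, while 19 of the first 100 Sp7mut regions overlapped an Sp1 region. Among the first 1000 the shares were 60% and 36.9%. When both lists were shortened alike, 6 of the first 100 regions coincided, 182 of the first 1000 (18.2%) and 1507 of the first 5000 Sp7mut regions (30.1%). The first regions of the factors were thus largely different places, although Sp7mut occupied most of those of Sp1 somewhere in its list. A peak of at least 1 Sp1 library lay under 88.0% of the first 100 Sp7mut regions, so that most of these leading regions were not free of Sp1 peaks.

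**Figure D1:**
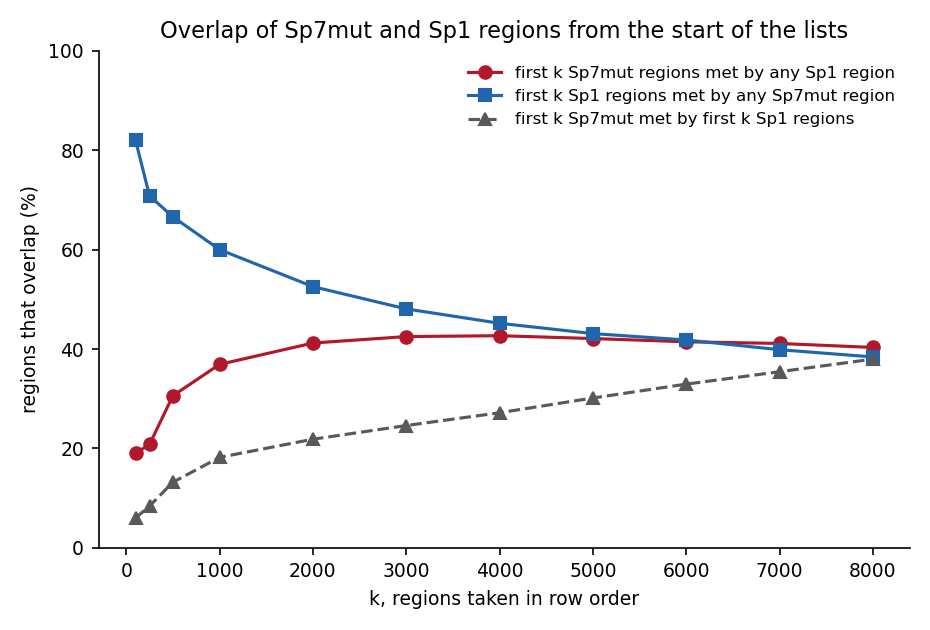
The percentage of regions that overlap a region of the other factor (vertical axis) is plotted for the first k regions in row order (horizontal axis). For Sp1 it falls from 82 of the first 100 regions to 38.4% of the first 8000, for Sp7mut it starts at 19 of 100 and ends at 40.3%, and with both lists shortened to k it rises from 6 of 100 to 38.0%.

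Position in both lists was examined at the 3295 overlapping pairs. Of the pairs in the first part of the Sp7mut regions, 54.5% were also in the first part of the Sp1 regions, which was the fullest combination with 363 pairs. That Sp1 part was also the fullest of common regions as a whole, with 962 of the 3271 common Sp1 regions. The last part of Sp7mut had 110 to 137 pairs in each Sp1 part. Since later Sp1 parts held fewer pairs in all, this was a growing share of them: 11.6%, 15.9%, 19.4%, 23.7% and 25.2% of the pairs of the 5 Sp1 parts in order.

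**Figure D2:**
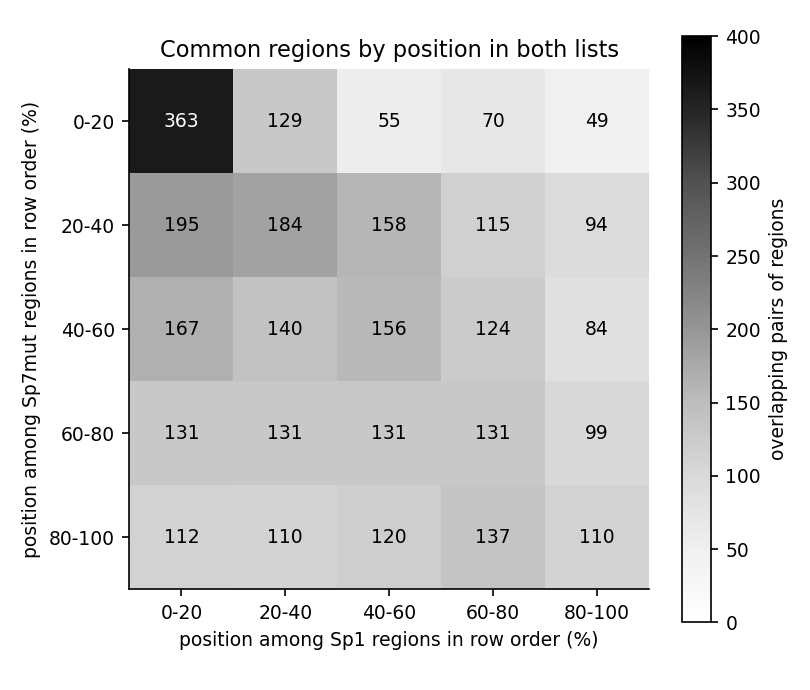
Overlapping pairs of regions are counted by the position of the Sp7mut region among all Sp7mut regions (rows, in parts of 20%) and of the Sp1 region among all Sp1 regions (columns). The darkest cell is the first part of both, with 363 pairs, and the cells of the last Sp7mut part hold 110 to 137 pairs.

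Where Sp7mut and Sp1 met, midpoints of their peaks were slightly further apart than those of replicates. Overlap itself keeps midpoints close, so the distances are read only against those between replicates at the same sites. The distance between peak midpoints was measured at the 2805 common sites that held exactly 1 peak of each of the 4 lists, so that every pair of lists was compared on the same sites. The median distance from Sp7mut replicate 1 was 34.5 bp to Sp1 replicate 1 and 30.0 bp to replicate 2, and from Sp7mut replicate 2 it was 37.5 bp and 34.0 bp. Between replicates it was 27.0 bp for Sp7mut and 20.5 bp for Sp1. All 4 distances between factors were therefore longer than both distances within a factor, by 10.3 bp on average. Without Sp7mut replicate 1 the excess was 19.8 bp, but over the Sp1 replicates alone, so these 2 amounts are not alike. Either amount is a small part of a peak's width.

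The tail of these distances was wider between factors than within them. Midpoints were more than 100 bp apart at 18.4% to 20.04% of sites between factors, against 11.7% between the Sp7mut replicates and 9.66% between the Sp1 replicates. At 1393 of the 2805 sites (49.7%) both Sp7mut midpoints lay on the same side of both Sp1 midpoints. Many sites would show this order without any difference between the factors, and that share was not estimated. The mean positions of the factors were over 100 bp apart at 374 of the 1393 sites (26.8%). Sp7mut lay at the lower coordinate in 736 of the 1393, so neither direction along the chromosome prevailed.

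**Figure D3:**
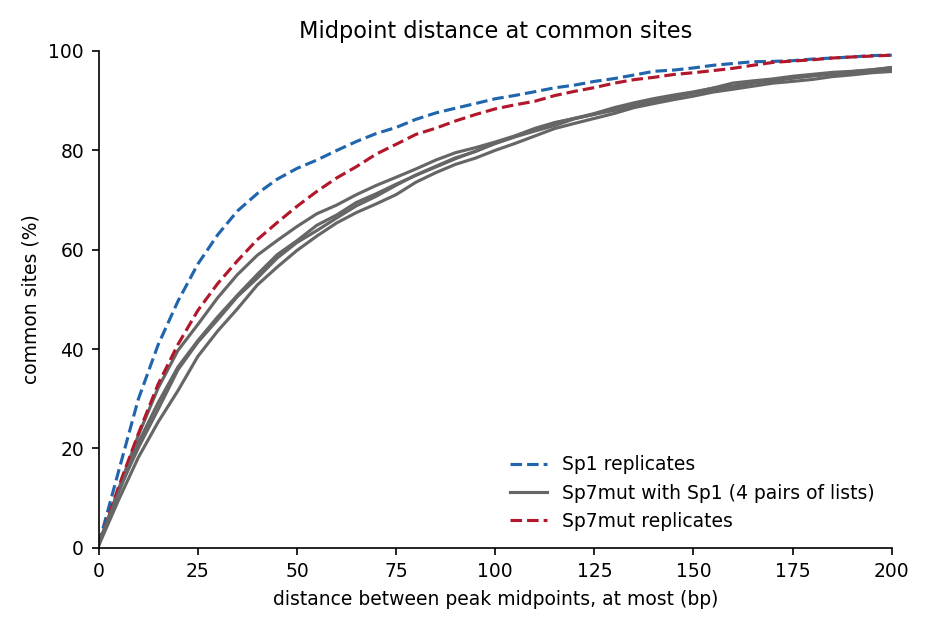
The percentage of the 2805 common sites (vertical axis) whose peak midpoints are at most the given distance apart (horizontal axis, bp) is shown for the 6 pairs of lists. The 4 grey curves for Sp7mut with Sp1 lie below the dashed curves of the Sp7mut and Sp1 replicates, with medians of 30.0 to 37.5 bp against 27.0 and 20.5 bp.

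Midpoint distance depended on row position and width. At the 347 sites in the first 20% of the regions of both factors, the distances between factors were 12.0 to 15.5 bp, against 12.0 bp between Sp7mut replicates and 9.0 bp between Sp1 replicates. There the range between factors touched that within Sp7mut. At the 595 sites in the last 50% of both they were 38.5 to 46.5 bp, with 38.0 and 33.0 bp between replicates. At the 633 sites late in Sp7mut and early in Sp1, Sp7mut replicates were 44.0 bp and Sp1 replicates 19.5 bp apart, and the distances between factors were the longest of these subsets, at 49.0 to 59.0 bp. Sites with narrower peaks gave 19.0 to 24.0 bp between factors, and sites with wider peaks 52.5 to 61.0 bp. The part of width in the longer distances was not tested.

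By median distance alone, the mutant's peaks lay about as close to those of Sp1 as to those of Sp7. At 1155 common sites with exactly 1 peak in each of the Sp7mut, Sp1 and cell line Sp7 lists, the 4 pairs of lists gave medians of 21.5 to 27.0 bp for Sp7mut with Sp1 and 23.0 to 26.5 bp for Sp7mut with Sp7. The ranges overlapped. Sp1 and Sp7 peaks were 28.5 to 35.0 bp apart at the same sites, above both of these ranges. The replicates were 19.5 bp apart for Sp7mut, 18.0 bp for Sp1 and 26.0 bp for Sp7. Sp7mut with Sp1 was thus above the replicate distances of both its factors. Sp7mut with Sp7 was above that of Sp7mut, and its range held that of Sp7. At 1450 common sites that also had 1 peak of each Dlx5 list, Sp7mut with Sp1 gave 26.5 to 33.0 bp, Sp7mut with Dlx5 36.3 to 37.5 bp and Sp1 with Dlx5 42.0 to 47.0 bp, in 3 ranges that did not overlap. Replicates at these sites were 23.0 bp apart for Sp7mut, 20.5 bp for Sp1 and 30.0 bp for Dlx5. Input libraries differed between these factors, and the part of the input was not tested.

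Median peak width was similar at common and separate regions, while the upper quartile of Sp7mut was wider at common ones. In Sp7mut replicates 1 and 2, median widths were 151 and 165 bp at common and 148 and 167 bp at separate regions. In Sp1 they were 155 and 149 bp at common and 160 and 154 bp at separate regions. These differences in medians were smaller than that between the Sp7mut replicates. The upper quartile, the width exceeded by 25% of peaks, was 225 bp at common and 187 bp at separate regions in Sp7mut replicate 1, and 257 and 210 bp in replicate 2. In Sp1 it was 225 and 223 bp, and 212 and 215 bp.

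Spacing was similar in the classes. The median distance to the next region of the same factor was 35.6 kb for common and 27.0 kb for separate Sp7mut regions, and 32.3 kb and 32.9 kb for Sp1. Another Sp7mut region lay within 10 kb of 26.4% of common and 30.6% of separate Sp7mut regions, so separate Sp7mut regions stood somewhat closer together. Another Sp1 region lay within 10 kb of 25.7% of common and 23.7% of separate Sp1 regions. Without Sp1 replicate 1 both differences turned, to 0.65 and -1.44 percentage points for common minus separate regions, so neither is a stable difference.

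The other factor's nearest region was mostly far from a separate region, but single peaks were often near. A separate Sp7mut region lay a median of 45.6 kb from the nearest Sp1 region, and a separate Sp1 region 48.4 kb from the nearest Sp7mut region. These medians exceed the spacing within each factor. To the nearest peak of either list of the other factor the medians were 0.0785 kb for Sp7mut and 8.04 kb for Sp1, and 73.4% and 39.8% of separate regions had such a peak within 1 kb. Nevertheless 385 separate Sp7mut regions (7.83%) had an Sp1 region within 1 kb that they did not overlap, and 315 separate Sp1 regions (5.55%) had an Sp7mut region within 1 kb. Of the 1722 Sp7mut regions with no Sp1 peak, 181 (10.5%) had an Sp1 region within 1 kb.

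**Figure D4:**
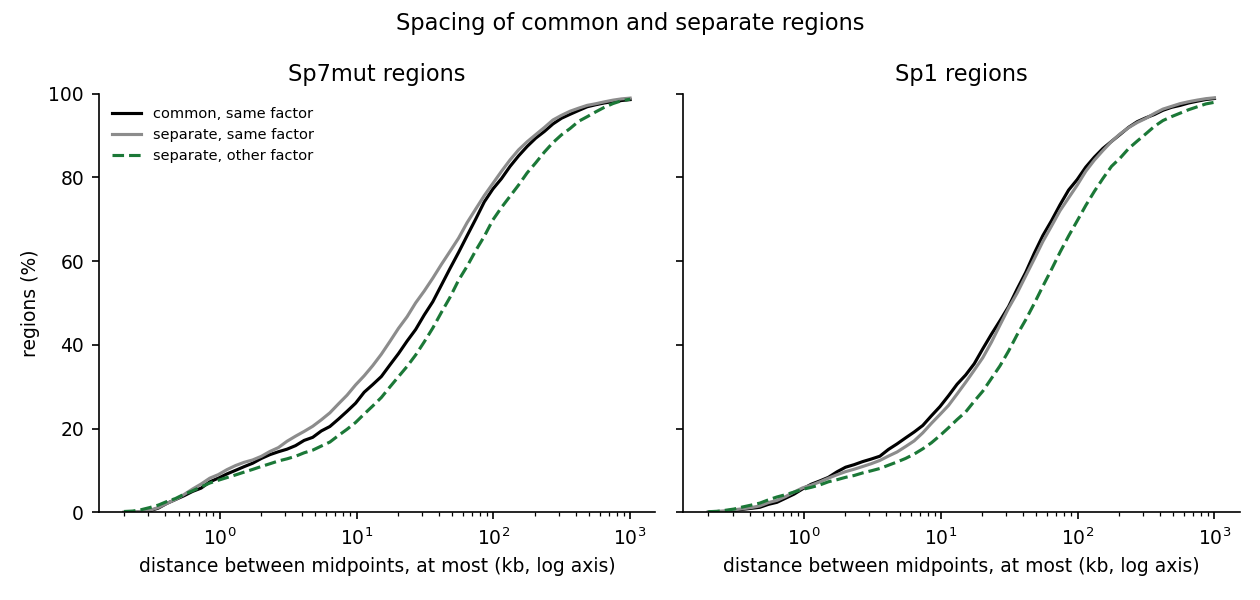
The percentage of regions (vertical axis) with a neighbour at most the given distance away (horizontal axis, kb, log scale) is shown for Sp7mut regions (left) and Sp1 regions (right). The curves to the next region of the same factor nearly coincide for common and separate Sp1 regions, with medians of 32.3 and 32.9 kb, while the dashed curves to the other factor's regions have medians of 45.6 and 48.4 kb, lie below the others at 10 and 100 kb, and cross them at short distances.

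Sites of either factor that followed each other with gaps of at most 10 kb between midpoints formed 2032 runs, which held 4812 of the 13850 sites (34.7%). Both factors were present in 1347 runs (66.3%), and 367 runs held Sp7mut sites alone and 318 Sp1 sites alone. In 447 runs both factors had sites but shared none. Of the 59 runs with 5 or more sites, 55 held both. Of all 13850 sites, 3262 were common, 4917 were of Sp7mut alone and 5671 of Sp1 alone. With such a mixture most runs would hold both factors even if the kinds of site were placed independently. Whether the factors cluster together was not tested. The run with the most sites, chr11:94790091-94816190 (mm9), had 10 sites in 26.1 kb: 5 common, 3 of Sp7mut and 2 of Sp1. Another run, chr2:167391404-167421633, had 8 sites, of which 2 were common, 6 were of Sp7mut and 0 were of Sp1. In contrast, the 7 sites at chr2:28372808-28389042 were 5 of Sp1 and 2 of Sp7mut with none common. These 3 runs were chosen after their values were seen.

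The share of Sp7mut regions in common with Sp1 varied between chromosomes. It was 46.8% of 761 regions on chromosome 11 and 44.7% of 739 on chromosome 2, against 23.5% of 230 on chromosome 13. Across the 19 autosomes this share had a Pearson correlation of 0.66 and a Spearman correlation of 0.79 with the density of protein-coding genes, taken per chromosome from RefSeq genes of GRCm38.p6. The share of Sp1 regions in common with Sp7mut had correlations of 0.12 and 0.24. The chromosomes share the same libraries, so these are descriptions. On chromosome X, Sp1 had 118 regions and Sp7mut 28, and only 8.47% of those of Sp1 were common.

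Common and separate regions differed in the other factors found there. Dlx5 had 23688 regions and cell line Sp7 5019, so the levels of their shares cannot be compared with each other. Of the Sp1 regions, 39.99% of the common ones but only 3.83% of the separate ones overlapped a cell line Sp7 region (intervals 38.3 to 41.7 and 3.34 to 4.36), where all Sp1 regions gave 17.1%. Common Sp1 regions overlap Sp7mut regions by definition, and 42.8% of all Sp7mut regions were Sp7 regions. The contrast is therefore partly set by the classes, for Dlx5 as well. In the 4 pairs of single lists the shares were 30.2% to 38.1% and 2.59% to 3.80%, and without Sp7mut replicate 1 the share of separate regions was 2.46%. Dlx5 regions met 53.0% of common and 17.6% of separate Sp1 regions (intervals 51.3 to 54.8 and 16.6 to 18.6), against 30.6% of all Sp1 and 68.3% of all Sp7mut regions. Single lists gave 44.4% to 59.7% and 14.4% to 24.7%. For both Sp7 and Dlx5, common Sp1 regions had the higher share in all 4 pairs of single lists and in each of the 5 parts in row order. Of the 3943 Sp1 regions with no Sp7mut peak in either list, 1.34% were Sp7 regions and 12.8% were Dlx5 regions.

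For Sp7mut, common and separate regions differed more in Dlx5 than in Sp7. Dlx5 regions met 53.6% of common and 78.2% of separate Sp7mut regions (intervals 51.8 to 55.3 and 77.0 to 79.4), where all Sp7mut regions gave 68.3%. The 4 pairs of single lists gave 45.2% to 60.2% and 62.4% to 71.0%, which did not overlap. Keeping only peaks in the wider 50% of their list gave shares of 23.1% and 24.5%, and keeping the first 5000 regions of every factor gave 11.6% and 55.8%. With those 5000 regions, Sp7 met 56.4% of common and 60.3% of separate Sp7mut regions, so the order of Dlx5 and Sp7 depended on the size of the sets. The lower share at common regions was seen on 20 of 20 chromosomes, but these are parts of the same libraries and add no separate support. Cell line Sp7 regions met 40.4% of common and 44.3% of separate Sp7mut regions, against 42.8% of all. Here the single lists overlapped, at 30.6% to 38.6% and 25.5% to 37.2%, and in 3 of the 4 pairs the common regions had the higher share. In all 5 parts in row order the separate regions had the higher share, so the direction differed between these readings. Without Sp7mut replicate 1, 28.7% of separate Sp7mut regions were Sp7 regions.

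Row position mattered for both partners. In the first part of the Sp7mut regions, 87.0% of common and 87.6% of separate regions were Sp7 regions. The common and separate shares were 52.4% and 59.4% in the second part, 29.9% and 38.8% in the third, 17.8% and 26.6% in the next, and 8.49% and 13.5% in the last. Dlx5 met 81.9% of common and 96.1% of separate regions in the first part, and 29.5% and 59.1% in the last. The gap in Dlx5 was therefore present in all 5 parts and smallest in the first. At common Sp1 regions the slope was smaller and uneven. Sp7 met 49.3% of them in the first part, 32.7% in the third and 38.4% in the last, and Dlx5 56.1%, 47.6% and 64.6%. Among Sp1 regions of any class, Sp7 met 34.2% of the first 1000 and 17.8% of the first 8000, and Dlx5 43.8% and 30.4%.

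Among Sp7mut regions, the separate ones were Sp7 regions of primary osteoblasts more often than the common ones. The 2097 primary Sp7 regions met 934 of 4917 separate regions (19.0%, interval 17.9 to 20.1) and 93 of 3286 common ones (2.83%, interval 2.29 to 3.46), where all Sp7mut regions gave 12.5%. In the first part of the Sp7mut regions the shares were 53.1% and 10.7%. Among the 1722 Sp7mut regions with no Sp1 peak in either list, 27.2% were primary Sp7 regions, against 15.6% of the 2963 that met Sp1 replicate 2 alone. Of all Sp1 regions 1.06% were primary Sp7 regions, and of the 5671 separate ones 6 were (0.106%). No range over single lists and no alternative setting was computed for the primary Sp7 shares.

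**Figure D5:**
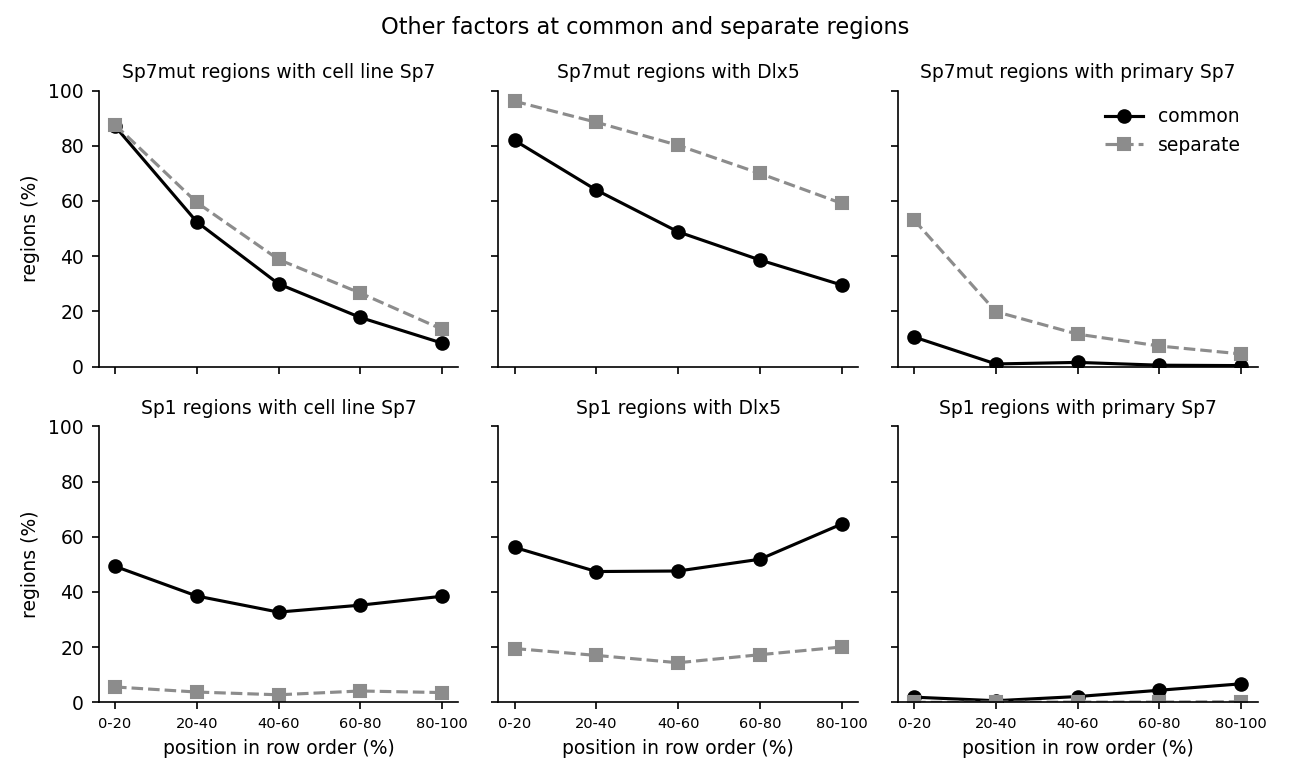
The percentage of common (black) and separate (grey, dashed) regions that overlap a region of cell line Sp7, Dlx5 or primary osteoblast Sp7 (columns) is shown for Sp7mut (top) and Sp1 (bottom) regions in 5 successive parts of the row order. At Sp7mut regions the curves for Sp7 run close together, from 87.0% and 87.6% down to 8.49% and 13.5%, and those for Dlx5 are apart in every part, while at Sp1 regions common lie above separate for Sp7 and Dlx5 throughout.

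Common pairs were then divided at 50% of the regions of each factor in row order. Among 1205 pairs in the first 50% of both factors, 63.2% of the Sp7mut regions were Sp7 regions and 66.2% Dlx5 regions. Among 550 pairs in the first 50% of Sp7mut and the last 50% of Sp1 they were 57.5% and 73.1%. Among 790 pairs in the last 50% of Sp7mut and the first 50% of Sp1 they were 14.7% and 31.6%, and among 750 late in both 18.5% and 41.9%. The shares of Sp7 and Dlx5 were thus higher early than late in Sp7mut, both in the first and in the last 50% of Sp1. At a like position in Sp7mut, the Dlx5 share was also higher late than early in Sp1, while that of Sp7 had no single direction. Primary Sp7 regions met 10.4% of the pairs early in Sp7mut and late in Sp1, against 2.32% of those early in both.

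The common regions highest in all 4 lists were led by chr11:86571049-86571229 (mm9), 181 bp wide. It stood at rows 33 and 43 of the Sp7mut lists and at rows 49 and 27 of the Sp1 lists, and was also a region of Sp7, Dlx5 and primary Sp7. The next, chr4:11249272-11249423, stood at rows 77 and 71 of Sp7mut and 52 and 35 of Sp1. In chr15:81688712-81688852 the rows were 76 and 128, and 46 and 33. At chr17:24210410-24210571 the Sp1 peaks stood at rows 5 and 11 and those of Sp7mut at 203 and 127. All 4 of these regions were Sp7 and Dlx5 regions, as were all 10 of the first 10 common regions, and 3 of the 10 were primary Sp7 regions. Of the 363 pairs in the first part of both factors, 88.2% were Sp7, 80.7% Dlx5 and 4.13% primary Sp7 regions. Among the first 100 Sp7mut regions of any class the shares were 100%, 99% and 81%.

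Some common regions stood at opposite ends of the lists. At chr1:14000977-14001193 the Sp7mut peaks were at rows 26 and 40, within the first 0.27% of each list, and the Sp1 peaks at rows 9694 and 13051, or 91.9% and 46.3% of their lists. At chr2:61192329-61192662 the rows were 269 and 421 in Sp7mut, and 9764 and 12052 in Sp1. The 5 common regions that were furthest ahead in Sp7mut were all Sp7 and Dlx5 regions, and 3 were primary Sp7 regions. Of all 49 pairs in the first part of Sp7mut and the last part of Sp1, 89.8% were Sp7, 93.9% Dlx5 and 51.0% primary Sp7 regions, close to these counts. In the opposite direction, chr19:36483770-36484243 stood at rows 397 and 932 of the Sp1 lists and at 9912 and 14399 of the Sp7mut lists, and chr4:107596112-107596341 at 247 and 394 of Sp1 and 8441 and 13725 of Sp7mut. Of the 5 regions furthest ahead in Sp1, 1 was an Sp7 region, 1 was a Dlx5 region and 0 were primary Sp7 regions. Of all 112 pairs in the last part of Sp7mut and the first part of Sp1, 6.25% were Sp7, 23.2% Dlx5 and 0.893% primary Sp7 regions.

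Among Sp7mut regions with no Sp1 peak in either list, the first was chr6:4457497-4457661, at rows 23 and 47. It was followed by chr5:32206233-32206402 at rows 19 and 88 and by chr6:87281067-87281245 at rows 59 and 48. These 3 were regions of Sp7, Dlx5 and primary Sp7. Of the first 10 such regions, all 10 were regions of both Sp7 and Dlx5, and 7 were also primary Sp7 regions. Among the first 100 Sp7mut regions of any class, 100% were Sp7, 99% Dlx5 and 81% primary Sp7 regions, so these counts are near those of any leading Sp7mut regions.

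Among Sp1 regions with no Sp7mut peak, chr2:148498225-148498366 stood far ahead, at rows 6 and 5 of the Sp1 lists. The next were chr2:11699203-11699385, at rows 35 and 60, and chr4:33335446-33335622, at rows 99 and 99. The first 2 were met by none of Sp7, Dlx5 and primary Sp7. Of the first 10 such regions 1 was an Sp7 region, 2 were Dlx5 regions and 0 were primary Sp7 regions. Of the first 100 Sp1 regions of any class, 49% were Sp7, 53% Dlx5 and 3% primary Sp7 regions. These 10 regions are too few to compare the classes.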

How the data were processed

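Peaks of the FLAG libraries were called by the authors per library on mm9, per the submitters' processing notes. The input of each list is named in the labels, except for the GFP control. The sources used here do not give the aligner, peak caller or threshold. The deposited files hold chromosome, start and end, read here as 0-based starts, and printed coordinates are 1-based. Overlapping or directly adjoining peaks of the replicates were merged, and overlap between factors or with control peaks needed 1 bp. Replicates may be technical, since the labels name no separate cultures.

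Row position of a region is its earliest row in a list, averaged over replicates. The members, classes and comparisons were chosen with earlier results of these data known. Named regions are the first 10 common regions by row position over the 4 lists, the first 10 of each factor with no peak of the other, and the 5 common regions with the largest difference in row position each way; examples from these are printed. Alternatives were a 50% overlap, control peaks kept, the first 50% of rows, the wider 50% of peaks, the first 5000 and 1000 regions, and leaving out each replicate. Chosen after seeing the data were equal numbers of rows, a division by single Sp1 or Sp7mut lists, and parts of the row order. Planned protein sequences of Sp7 and Sp1 were not used here. Overlap code was tested on lists made with known overlaps of 0, 15, 25 and 55% of 8000 regions, which it returned as 0, 15, 25 and 55%. Software was matplotlib 3.10.9, scipy 1.17.1, pandas 2.3.3 and numpy 2.4.6 under Python 3.11.15.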

Additional observations from a re-analysis of the deposited data

How the results depend on the processing

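No paired analysis was possible because the lists hold positions only and no comparison was a fitted test. Values that moved by more than the standard deviation over the 4 pairs of single lists are given here.

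With an overlap of at least 50% of both intervals, 21.5% of Sp7mut regions met Sp1 and 19.95% of Sp1 regions met Sp7mut. Midpoints of the factors were 17.3 bp apart, 3.25 bp more than those of replicates. Separate Sp7mut regions stood 13.3 percentage points later than common ones, and the Sp1 spacing difference was 0.45 points. Sp7 then met 34.1% of separate Sp7mut and 3.10% of separate Sp1 regions. Dlx5 met 34.9% and 57.6% of common and separate Sp7mut regions, and 34.6% and 7.55% of common and separate Sp1 regions.

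With the first 50% of rows, 30.0% of Sp7mut regions met Sp1 and 26.3% of Sp1 regions met Sp7mut. The midpoint distance was 24.1 bp, an excess of 6.38 bp, and the Sp7mut spacing difference was -6.44 points. Sp7 met 1.31% of separate Sp1 regions, and Dlx5 met 34.2% of common Sp7mut, 33.4% of common Sp1 and 5.29% of separate Sp1 regions.

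With the first 5000 regions of every factor the midpoint distance was 24.1 bp, an excess of 6.63 bp. Sp7 met 56.4% and 60.3% of common and separate Sp7mut regions and 55.5% and 5.18% of those of Sp1. Dlx5 met 11.6% and 55.8%, and 11.0% and 0.801%. With the first 1000, 18.2% of the regions of each factor were common, midpoints were 10.8 bp apart, an excess of 1.50 bp, Sp7 met 65.9% and 65.0% of common and separate Sp7mut regions and 65.9% and 1.34% of those of Sp1, and Dlx5 met 1.10% and 61.4%, and 1.10% and 0%.

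With the wider 50% of peaks, 16.0% of Sp7mut and 13.7% of Sp1 regions were common, and midpoints were 46.1 bp apart, an excess of 15.3 bp. Sp7 met 19.8% and 13.0% of common and separate Sp7mut regions and 19.9% and 5.31% of those of Sp1, and Dlx5 met 23.1% and 24.5%, and 22.9% and 11.1%.

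The spacing difference was -1.03 points for Sp7mut and -0.22 for Sp1 at 1 kb, where that of Sp1 turned, and -1.22 for Sp7mut at 100 kb. With equal numbers of rows it was -6.31 and 3.43, and Sp7 met 44.5% of common Sp7mut and 44.0% of common Sp1 regions. Counting as separate only regions with no peak of the other factor left 21.0% of Sp7mut and 44.1% of Sp1 regions.

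Leaving out each replicate in turn gave 31.6% to 76.4% of Sp7mut and 23.0% to 50.0% of Sp1 regions as common, with the highest Sp7mut value without Sp1 replicate 1. The midpoint distance was 33.5 to 41.8 bp and its excess 8 to 19.8 bp, each time over the replicates of the factor that kept both lists. Separate regions stood 3.04 to 11.5 points later than common ones in Sp7mut and 8.82 to 27.3 in Sp1, and the spacing differences were -6.19 to 0.65 and -1.44 to 2.10. Sp7 met 31.1% to 43.2% and 28.7% to 44.9% of common and separate Sp7mut regions, and 31.6% to 41.6% and 2.46% to 4.04% of those of Sp1. Dlx5 met 45.6% to 65.0% and 65.6% to 79.3%, and 46.6% to 62.6% and 14.6% to 25.1%.

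Under all 11 alternatives, Dlx5 met fewer common than separate Sp7mut regions, the difference being -1.39 points with wider peaks and as far as -60.3 points, and both Sp7 and Dlx5 met more common than separate Sp1 regions. The sign of the Sp7 difference at Sp7mut regions was the main one under 6 of 11. Depth is unknown, so a region without a peak cannot be told from one below the threshold.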
